A study of Mus musculus with 3 samples.

Results

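Calcium-binding proteins are among the labels by which enteric neurons have long been sorted into classes, and 7 of their genes were followed here through 2060 cells deposited as enteric neurons of mice that lack *Ednrb*. The genes were chosen by symbol: *Calb1*, *Calb2*, *Pvalb*, *Necab1*, *Necab2*, *Hpcal1* and *Ncald*. All 7 are among the 33353 genes with deposited values, and 6 of the 7 had at least 1 UMI (unique molecular identifier, which counts captured RNA molecules). The cells came from 3 Ednrb-KO mice (C57BL/6 in the labels, genotype *Wnt1-tdT; Ednrb*-/-) at postnatal day 14, 1 single-cell library per mouse, sorted for tdTomato from the longitudinal muscle and myenteric plexus of the whole small intestine. The tdTomato reporter marked the cells in which *Wnt1*-driven Cre had acted, the neural crest and its descendants, and every mouse carried the *Ednrb* deletion, a model of Hirschsprung disease. The distal bowel of such mice is aganglionic, and the small intestine sampled here still has ganglia. The paper's stock names for the *Ednrb* and reporter lines also hold a strain other than C57BL/6. There was 1 condition and no control mouse, so no effect of the genotype was measured, and all comparisons are between classes of cells within the 3 mice.

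These proteins bind calcium through EF-hand loops and fall into groups by what they do with it. Calbindin (*Calb1*), calretinin (*Calb2*) and parvalbumin (*Pvalb*) are mainly buffers that take up calcium after an action potential. Neurocalcin delta (*Ncald*) and hippocalcin-like 1 (*Hpcal1*) belong to the neuronal calcium sensors, which carry a fatty acid that lets them move to membranes when calcium rises. *Necab1* and *Necab2* encode N-terminal EF-hand proteins found in subsets of neurons of the brain and sensory ganglia. In the gut, calretinin and calbindin stainings mark classes of motor neurons, interneurons and sensory neurons that differ between species, and calretinin staining of nerve fibres is used in the diagnosis of Hirschsprung disease.

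On the mouse genome (GRCm38, GENCODE M21) the genes lie apart or in loose neighbourhoods. *Calb1* is at chromosome 4, 15881264 to 15908064 on the plus strand, and *Necab1* at chromosome 4, 14952245 to 15149794 on the minus strand. *Calb2* is at chromosome 8, 110137502 to 110168210 on the minus strand, and *Necab2* at chromosome 8, 119446719 to 119472640 on the plus strand. *Pvalb* is at chromosome 15, 78191114 to 78206400 and *Ncald* at chromosome 15, 37366175 to 37792570, both on the minus strand. *Hpcal1* is at chromosome 12, 17690856 to 17791933 on the plus strand. Each is annotated as protein coding, and the values count UMIs per gene, so isoforms were not told apart.

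Mouse 1 stood apart from the others before any of these genes was looked at. It gave 354 cells with a median of 3734.5 UMIs, against 1050 cells with 9599.5 in mouse 2 and 656 cells with 9578.5 in mouse 3. Its genes were also listed under other names, since 149 genes had UMIs in mouse 1 under one symbol only and in mice 2 and 3 under another (*Ccn2* and *Ctgf*, for example). No other symbol of the 7 genes, or of *Nos1*, *Chat*, *Nmu* and *Slc17a6*, was listed. In a clustering of all cells into 13 clusters, numbered 0 to 12, all 230 cells of cluster 3 were from mouse 1, as were 58 of the 64 cells of cluster 10, which carried smooth muscle markers. Clusters with neuronal markers held 1756 of the 2060 cells, and cluster 2, with 240 cells from mice 2 and 3, had neuronal and glial markers at about equal shares and was left unnamed. Differences in the 7 genes that rest on mouse 1 are given with and without it. No doublet caller was run, and 2 barcodes were shared between mice.

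*Calb2* was in 33.6% of the cells of mouse 1, 58.4% of mouse 2 and 64.8% of mouse 3, or 52.3% ± 16.5 (SD, n = 3). Per 10000 UMIs its level was 3.72, 4.93 and 5.09 in mice 1, 2 and 3. Levels differed less between mice than shares did, and with every cell thinned to 3000 UMIs the shares were 31.2%, 43.1% and 48.0%. *Calb2* was also unevenly spread over cells, up to 76 UMIs in a single cell, and the 206 cells with the most *Calb2* (10% of all) held 63.0% of its 8941 UMIs. In mouse 1, *Calb2* was in 10.3% of the 58 smooth muscle-like cells and in 38.2% of the other 296 cells, at similar median depths of 3488.5 and 3828 UMIs. The first share serves as a background, from cells that should lack a neuronal gene. The 95% exact binomial intervals of the shares (3.89% to 21.2% and 32.6% to 44.0%) did not overlap. Intervals and limits of this kind cover counting error only.

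*Ncald* was in 47.5%, 71.0% and 65.7% of the cells of mice 1, 2 and 3, and its level was 1.75, 1.98 and 1.70 UMIs per 10000. At 3000 UMIs per cell the shares came together at 37.7%, 40.1% and 37.6%, so the spread over mice in deposited cells went with depth. Its UMIs were more evenly spread than those of *Calb2*, with 38.3% of 3408 UMIs in the top 206 cells. *Ncald* was in 37.9% of the smooth muscle-like cells of mouse 1 and in 49.3% of its other cells, with intervals that overlapped (25.5% to 51.6% and 43.5% to 55.2%). Whether its UMIs in the smooth muscle-like cells came from those cells was not tested.

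For *Necab1* the shares were 24.9% in mouse 1, 23.0% in mouse 2 and 22.7% in mouse 3. These near-equal shares did not reflect equal levels, which were 0.839, 0.389 and 0.399 UMIs per 10000, and thinned shares were 20.7% in mouse 1 against 9.55% and 10.5% in mice 2 and 3. *Necab2* was in 10.5%, 19.4% and 19.97% of the cells, with levels of 0.347, 0.314 and 0.278 and thinned shares of 8.70%, 7.34% and 9.98%. *Hpcal1* was in 22.0%, 28.0% and 26.1% of the cells, with levels of 0.701, 0.437 and 0.410 and thinned shares of 14.1%, 11.1% and 10.3%. Most positive cells had 1 UMI of the gene: 65.9% for *Necab1*, 69.6% for *Necab2* and 70.0% for *Hpcal1*. In the smooth muscle-like cells of mouse 1, *Necab1* was in 3.45% against 29.1% of its other cells, *Necab2* in 5.17% against 11.5% and *Hpcal1* in 10.3% against 24.3%. Of these only the intervals of *Necab1* (0.420% to 11.9% and 23.9% to 34.6%) did not overlap.

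*Calb1* was rare, with 73 UMIs in 49 of the 2060 cells, or 2.38% (95% exact binomial interval 1.76% to 3.13%). It was in 8 cells (2.26%) of mouse 1, 20 (1.90%) of mouse 2 and 21 (3.20%) of mouse 3. No cell had more than 4 UMIs of it, and none of the 64 smooth muscle-like cells had any, which allows a share of cells with a UMI of up to 4.69%. *Pvalb* had no UMI in any cell. A count of 0 allows a share of cells with a *Pvalb* UMI of up to 0.847% in mouse 1, 0.286% in mouse 2 and 0.457% in mouse 3, and 0.146% over all 2060 cells. These limits hold for detection, not for the share of cells that express the gene.

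**Figure D1:**
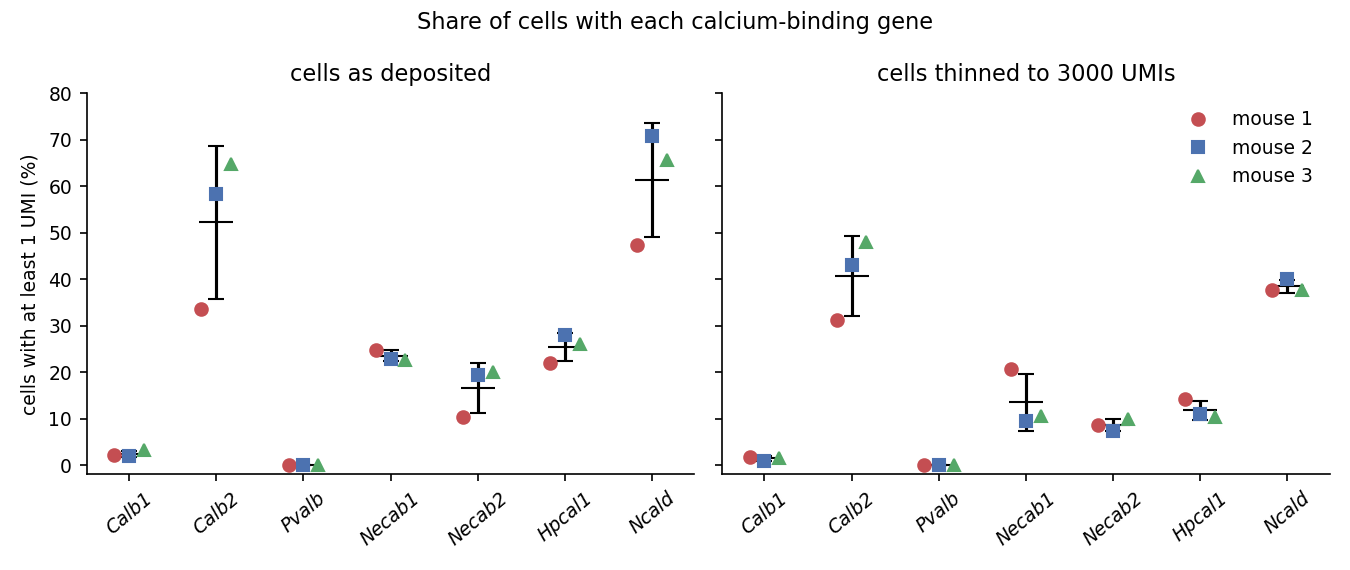
Share of cells with at least 1 UMI (percent, y axis) of each of the 7 genes in each mouse (coloured points), with the mean and SD over 3 mice in black, for cells as deposited (left) and thinned to 3000 UMIs (right). The spread of *Ncald* over mice narrows from 47.5% to 71.0% down to 37.6% to 40.1% after thinning, while *Necab1*, near equal as deposited, is at 20.7% in mouse 1 against 9.55% and 10.5% in mice 2 and 3, and *Pvalb* is at 0 throughout.

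Nitrergic and cholinergic neurons are the main inhibitory and excitatory divisions of the myenteric plexus, and *Nos1* and *Chat* encode the enzymes that make their transmitters. Cells with *Nos1* and no *Chat* numbered 130, 531 and 301 in mice 1, 2 and 3, and cells with *Chat* and no *Nos1* numbered 16, 148 and 113. A further 103 cells had both, and 718 had neither. Of the 64 smooth muscle-like cells, 11 (17.2%) had *Nos1* and 2 (3.125%) had *Chat*, against 52.8% and 18.9% of the other cells. These 11 and 2 cells were in the *Nos1*-only and *Chat*-only classes. *Calb2* was at 1.91, 3.17 and 2.83 UMIs per 10000 in the *Nos1*-only cells of mice 1, 2 and 3 and at 9.22, 10.4 and 9.06 in the *Chat*-only cells. It was lower in *Nos1*-only cells in 3 of 3 mice, and the groups did not overlap. The mean log2 difference was -1.85 ± 0.15 (SE), on the scale of log2(UMIs per 10000 + 0.1), with an adjusted p of 0.0627 by limma over 9480 genes, which does not pass 0.05. Cells with both enzymes lay between, at 5.09, 5.72 and 7.63. The difference in level was wider than that in share, since *Calb2* was still in 26.9%, 55.9% and 61.1% of *Nos1*-only cells and in 68.8%, 79.1% and 72.6% of *Chat*-only cells.

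*Ncald* had the opposite order. It was at 2.46, 2.45 and 2.26 UMIs per 10000 in *Nos1*-only cells of mice 1, 2 and 3 and at 1.21, 1.46 and 1.31 in *Chat*-only cells, higher in *Nos1*-only cells in 3 of 3 mice with no overlap. The log2 difference was 0.80 ± 0.13 (SE), with an adjusted p of 0.130 by limma. *Necab1* (log2 difference -0.41, 95% limits -0.94 to 0.13), *Necab2* (-0.41, -0.98 to 0.16) and *Hpcal1* (-0.21, -0.62 to 0.20) had intervals that included 0. *Calb1* and *Pvalb* fell under the filter of a mean of 0.1 UMIs per 10000 and were not tested.

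In this comparison 0 of the 5 genes tested passed an adjusted p of 0.05, as did 0.0316% of all genes tested (3 of 9480). At an unadjusted p of 0.05 there were 2 of the 5, *Calb2* and *Ncald*, beside 13.6% of all genes. The result changed without mouse 1, which gave 16 *Chat*-only cells. Then 3 of the 5 genes passed (*Calb2* with a log2 difference of -1.66 and adjusted p of 9.73e-08, *Ncald* with 0.72 and 0.000206, *Necab2* with -0.56 and 0.0222), but so did 22.2% of all genes, and the spread of 2 mice was then estimated with 1 residual degree of freedom and what limma borrows from all genes. *Calb2* also passed without mouse 2 (0.00164), without mouse 3 (0.0203) and with only the genes that had UMIs in every mouse (0.0483, an alternative added after the data were seen). Over 13 alternatives its adjusted p reached 0.146 at most and its log2 difference lay between -1.95 and -1.66. Summed over 10 smooth muscle markers, *Nos1*-only cells had 30.6, 19.4 and 12.4 UMIs per 10000 in mice 1, 2 and 3 and *Chat*-only cells 17.1, 6.90 and 8.08. Summed over 10 glial markers they had 19.9, 30.9 and 21.9 and 16.5, 20.1 and 12.9. The part of these markers in the result was not tested.

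*Nmu*, the gene of the neuropeptide neuromedin U, marks a class of enteric neurons regarded as sensory. It was in 31, 80 and 89 cells of mice 1, 2 and 3, while 0 of 64 smooth muscle-like cells carried it. *Necab1* was at 2.49, 0.886 and 0.828 UMIs per 10000 in the *Nmu*-positive cells of mice 1, 2 and 3 and at 0.639, 0.346 and 0.329 in the *Nmu*-negative cells. It was higher with *Nmu* in 3 of 3 mice, and mouse 1 was highest in both groups. The log2 difference was 1.36 ± 0.20 (SE), with an adjusted p of 0.147 by limma over 9580 genes. *Calb2* was at 12.2, 7.55 and 6.46 in *Nmu*-positive cells and at 2.70, 4.71 and 4.86 in *Nmu*-negative cells, a log2 difference of 1.07 ± 0.33 with an adjusted p of 0.639. The groups did not overlap for *Calb2*, and the gap was widest in mouse 1. Without mouse 1 the log2 difference of *Calb2* was 0.54 (adjusted p 0.1002).

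*Hpcal1* was at 2.005, 0.509 and 0.607 in *Nmu*-positive cells and at 0.543, 0.431 and 0.378 in *Nmu*-negative cells, higher with *Nmu* in 3 of 3 mice. *Ncald* was at 0.486, 1.69 and 1.27 against 1.90, 2.0045 and 1.77, lower with *Nmu* in 3 of 3. Their log2 differences were 0.83 ± 0.30 and -0.82 ± 0.31, each with an adjusted p of 0.639. Without mouse 1 they were 0.38 and -0.34, with adjusted p of 0.508 and 0.424. *Necab2* had no UMI in the 31 *Nmu*-positive cells of mouse 1, where 3 UMIs would be 0.182 per 10000, and in mice 2 and 3 it was at 0.303 and 0.265 against 0.315 and 0.280. For *Necab2* the gap thus lay in mouse 1, and its log2 difference was -0.80 with mouse 1 and -0.05 without it.

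Among the 5 genes tested, 0 passed an adjusted p of 0.05, beside 0.0104% of all genes (1 of 9580, the protocadherin gene *Pcdh10*, named after its value was seen, which passed in 9 of 13 alternatives), and 4 of 5 had an unadjusted p under 0.05 beside 7.18% of all genes. Without mouse 1, *Necab1* passed with a log2 difference of 1.13 and an adjusted p of 0.00108, the only 1 of the 5, beside 1.04% of all genes. It passed in 3 of 13 alternatives, with adjusted p from 0.000231 to 0.861. The *Nmu*-positive cells were not the same mixture in each mouse. In mouse 1, 83.9% of them were in cluster 9, which the *Nmu* gene helps define, whereas in mice 2 and 3 only 6 of 80 and 9 of 89 were, and 65 of 80 and 59 of 89 had a single *Nmu* UMI. Among cells with 2 or more *Nmu* UMIs (25, 15 and 30), *Necab1* was at 2.76, 2.56 and 1.67 and *Hpcal1* at 2.30, 0.973 and 1.15, and for both the mice were closer together than with 1 UMI. *Calb2* was at 14.3, 6.27 and 9.38, and its mice were farther apart than with 1 UMI. With classes set by 2 UMIs, *Calb2*, *Necab1* and *Hpcal1* passed as higher and *Ncald* as lower with *Nmu*. Smooth muscle markers summed to 29.3, 20.6 and 16.7 UMIs per 10000 in *Nmu*-positive cells and to 70.3, 15.6 and 9.96 in *Nmu*-negative cells. Glial markers summed to 8.93, 29.6 and 19.3 and to 23.6, 30.3 and 23.8. Their part in the result was not tested.

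*Slc17a6*, the gene of a vesicular glutamate transporter, was in 10, 13 and 16 cells of mice 1, 2 and 3. It was in 0 of 64 smooth muscle-like cells, which allows a share of up to 4.69%, above the 1.95% of other cells. That 0 thus does not separate the smooth muscle-like cells from the others. *Calb1* was at 1.70, 0.142 and 0.252 UMIs per 10000 in *Slc17a6*-positive cells and at 0.0608, 0.0235 and 0.0416 in *Slc17a6*-negative cells. The values rest on 8, 2 and 4 UMIs in 4, 1 and 3 cells. *Calb1* was higher with *Slc17a6* in 3 of 3 mice, with a log2 difference of 1.92, and of 1.14 without mouse 1. It reached the filter of 0.1 UMIs per 10000 only through the *Slc17a6*-positive cells, so its direction was set in advance, and these differences are a description with no test.

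*Calb2* went the other way, and not in the same manner in each mouse. None of the 10 *Slc17a6*-positive cells of mouse 1 had *Calb2*, where 3 UMIs would be 0.638 per 10000, and the level in mice 2 and 3 was 4.53 and 3.41. In *Slc17a6*-negative cells it was at 3.84, 4.94 and 5.13. The log2 difference was -1.9996 ± 0.71, with an adjusted p of 0.289 by limma over 9401 genes, and the fitted value depends on the pseudocount because of the 0. Of the 39 *Slc17a6*-positive cells, 18 were in cluster 0 and 15 in cluster 11. Cluster 0 held 0 cells of mouse 1, and the clusters were made with *Calb2* among their variable genes, so this split is a description. In mouse 3, 5 of 16 were in cluster 11, and 2 of these 5 had *Calb2*. In mouse 1, 9 of the 10 were in cluster 11, and 0 of those 9 had *Calb2*, while in mouse 2, 10 of 13 and in mouse 3, 8 of 16 were in cluster 0, and all of these 18 had *Calb2*. Without mouse 1 the log2 difference of *Calb2* was -0.35. In mice 2 and 3, 9 of the 13 and 10 of the 16 *Slc17a6*-positive cells had a single *Slc17a6* UMI. Among cells with 2 or more (6, 4 and 6), *Calb2* was at 0, 1.53 and 2.56, lower in each mouse than in *Slc17a6*-negative cells.

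*Hpcal1* was at 0, 0.354 and 0.252 against 0.723, 0.438 and 0.414, *Necab1* at 0.850, 0 and 0.252 against 0.838, 0.394 and 0.403, and *Ncald* at 0.850, 1.49 and 1.58 against 1.78, 1.99 and 1.70. *Necab2* was at 0.425, 0.496 and 0.379 in *Slc17a6*-positive cells against 0.345, 0.311 and 0.275, higher with *Slc17a6* in 3 of 3 mice with an interval that included 0 (log2 difference 0.38 ± 0.37 SE). The log2 differences of *Hpcal1*, *Necab1* and *Ncald* were -1.28, -0.93 and -0.49, and without mouse 1 they were -0.40, -1.41 and -0.25. Of the 5 genes with a mean of at least 0.1 in both classes, 0 passed an adjusted p of 0.05, beside 0.223% of all genes tested (21 of 9401), and 2 (*Calb2* and *Hpcal1*) had an unadjusted p under 0.05, beside 13% of all genes. Without mouse 1 there were again 0 of the 5, beside 2.71% of all genes.

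**Figure D2:**
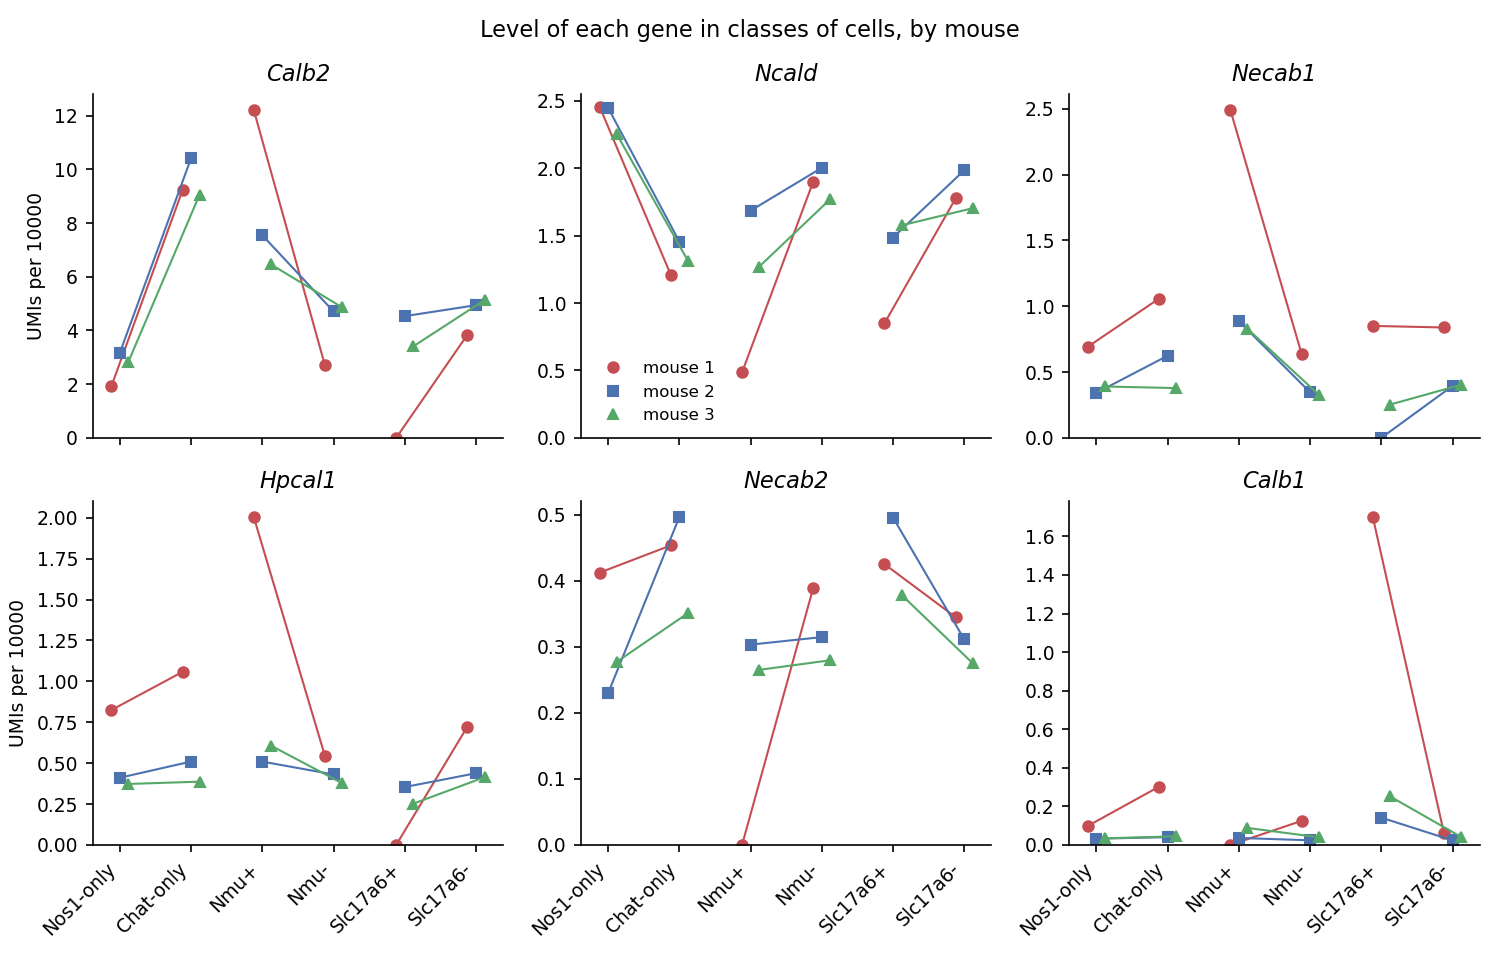
Level of 6 of the genes (UMIs per 10000 of the class's summed UMIs, y axis, a scale of its own for each gene) in 6 classes of cells, with 1 coloured point per mouse and lines joining the classes compared within a mouse. *Calb2* is higher and *Ncald* lower in *Chat*-only than in *Nos1*-only cells in all 3 mice, and mouse 1 has the widest *Nmu* gaps for *Hpcal1* and *Necab2* and the widest *Slc17a6* gap for *Calb1*.

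**Figure D3:**
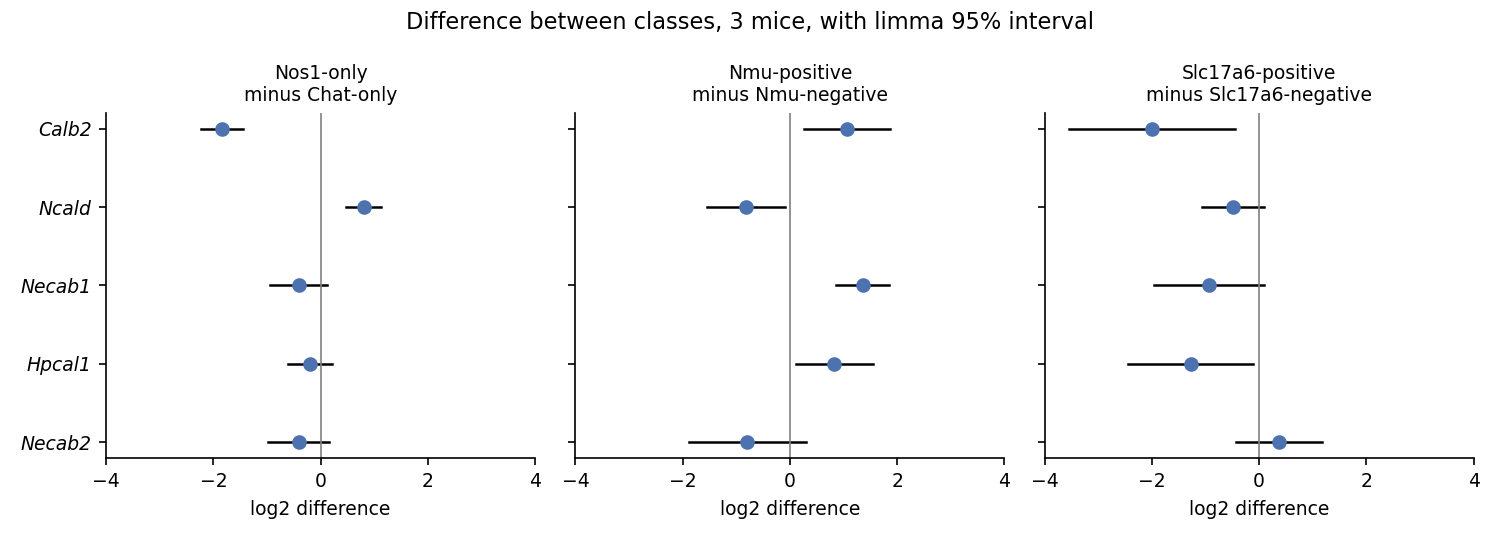
Log2 differences between classes (x axis, on log2(UMIs per 10000 + 0.1)) with limma 95% intervals over 3 mice, for the genes with a mean of at least 0.1 UMIs per 10000 in both classes of each of 3 comparisons. *Calb2* is lower and *Ncald* higher in *Nos1*-only cells, with intervals that miss 0, and none of the differences passes an adjusted p of 0.05 over all genes.

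*Calb1* and *Calb2* are often used together to type enteric neurons, and here they shared 23 cells, 0 in mouse 1, 11 in mouse 2 and 12 in mouse 3. That is 46.9% of the *Calb1* cells and 1.99% of the *Calb2* cells. If the genes were independent within each mouse, 28.0 cells with both would be expected (2.69, 11.7 and 13.6), a ratio of observed to expected of 0.822 with a 95% exact Poisson interval of 0.521 to 1.23. Taking the depth of each cell into account as well, the expected number was 31.7 and the ratio 0.725 (0.460 to 1.09). Co-detection was thus not separable from independence at this depth, with 49 *Calb1* cells in all.

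The pooled ratio hid a split between clusters. Of the 49 *Calb1* cells, 17 were in cluster 0, and 14 of these had *Calb2*. Another 13 were in cluster 11, with 24 of the 73 *Calb1* UMIs, and 1 of these had *Calb2*. *Calb2* was in 81.0% of all cells of cluster 0 and in 17.9% of those of cluster 11. The split thus went with the *Calb2* shares of the clusters and is not shown to be a trait of *Calb1* cells. Of the 13 *Calb1* cells of cluster 11, 8 were from mouse 1, which had 0 cells in cluster 0. The share with *Calb1* was 33.3% in cluster 11 (39 cells) and 4.50% in cluster 0 (378 cells). Both clusters were made with *Calb1* and *Calb2* among their variable genes, so these shares are a description. With the class genes, *Calb1* met *Slc17a6* in 8 cells against 1.19 expected when mouse and cell depth are both used (ratio 6.70, 2.89 to 13.2). Of these 8 cells, 4 were in mouse 1 (ratio 15.3, 4.17 to 39.2), and the ratios of mice 2 and 3, 3.34 and 4.74, had intervals that included 1. Without mouse 1 there were 4 cells against 0.932 expected, a ratio of 4.29 (1.17 to 10.98), an alternative added after the data were seen. Its ratios with *Nos1* (0.858), *Chat* (0.963) and *Nmu* (1.47) had intervals that included 1.

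Among the 15 pairs of the 6 detected genes, 4 had a ratio whose interval lay above 1 when depth was taken into account. These were *Calb2* with *Necab2* (1.22, 1.09 to 1.37), *Necab1* with *Necab2* (1.30, 1.09 to 1.55), *Necab1* with *Hpcal1* (1.23, 1.06 to 1.43) and *Necab2* with *Hpcal1* (1.24, 1.04 to 1.46). With single mice left out, also added after the data were seen, the intervals of the 3 pairs with *Necab2* included 1 without mouse 2 (ratios 1.17, 1.18 and 1.06), and that of *Necab1* with *Hpcal1* included 1 without mouse 1 (1.18). *Ncald* gave ratios from 0.948 with *Calb2* to 1.04 with *Necab2*, and its 5 intervals all included 1. No pair had an interval below 1. The ratios describe these cells, with no test, since cells of a mouse are not replicates.

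**Figure D4:**
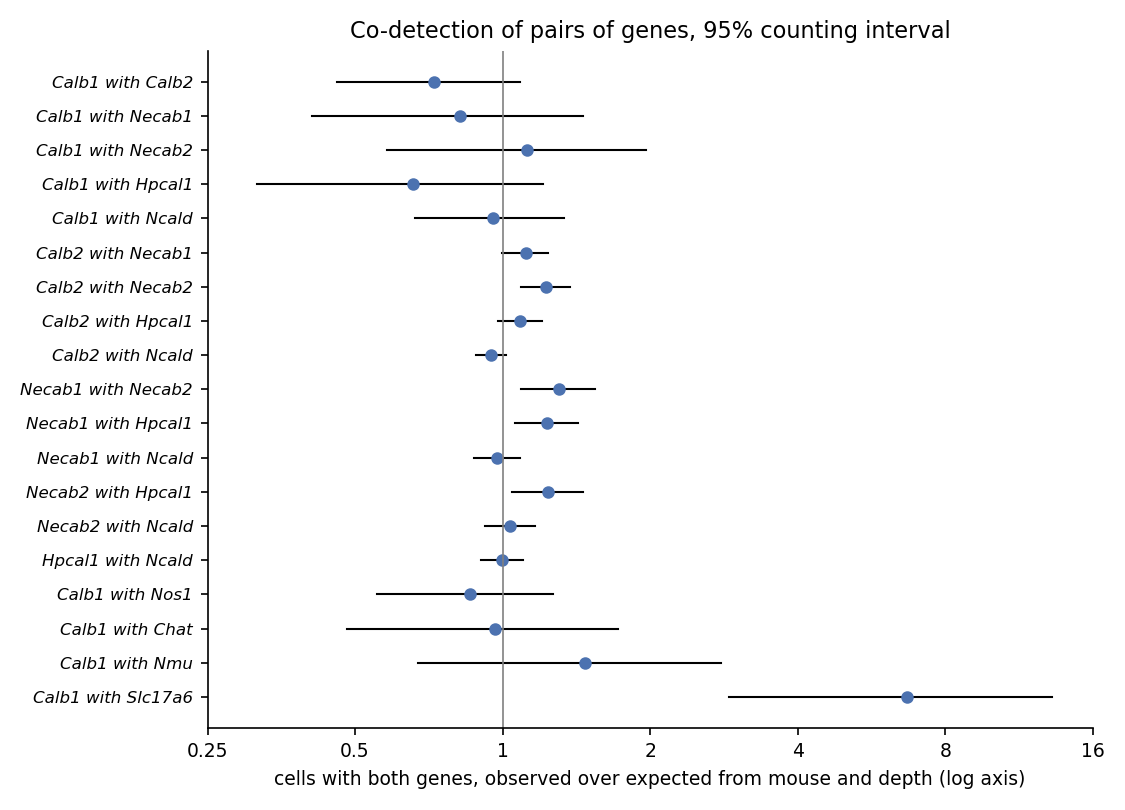
Ratio of the observed to the expected number of cells with both genes (x axis, log scale), expected from mouse and cell depth, with 95% exact Poisson intervals, for 15 pairs of the calcium-binding genes and for *Calb1* with 4 class genes. *Calb1* with *Slc17a6* lies farthest from 1, at 6.70, and *Calb1* with *Calb2* lies at 0.725 with an interval that spans 1.

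Over clusters, the levels of *Calb2* and *Necab2* were highest in cluster 8, those of *Necab1* and *Hpcal1* in cluster 9, that of *Ncald* in cluster 7 and that of *Calb1* in cluster 11. The clusters were built on the same cells, with 5 of the 7 genes among the variable genes used, so the values below are a description. *Calb2* was highest in cluster 8, at 24.3 UMIs per 10000 in mouse 2 and 23.8 in mouse 3, and in 96.8% of its 94 cells. Cluster 9 came next, at 9.58, 12.7 and 17.7 in mice 1, 2 and 3. Clusters 0, 4 and 5 lay between 4.19 and 4.93 in mice 2 and 3 and did not differ beyond the spread of the mice. *Calb2* was lowest in clusters 2 (0.381), 11 (0.473) and 10 (0.560), the unnamed, the *Slc17a6* and the smooth muscle-like cluster.

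*Necab1* was highest in cluster 9, in 77.3% of its 66 cells, at 2.60, 4.93 and 2.91 in mice 1, 2 and 3. The next highest cluster, cluster 4, was at 0.801 over all cells. *Hpcal1* was also highest in cluster 9, at 1.499 over all cells, but ranged from 0.493 in mouse 2 to 2.04 in mouse 3 and did not separate there from cluster 12, at 1.07 and 1.16 in mice 2 and 3. *Necab2* was highest in clusters 8 (1.02 and 0.464 in mice 2 and 3) and 4 (0.822 and 0.581), whose values overlapped, and it was in 57.4% of the cells of cluster 8. In cluster 9 it was in 4.55%.

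*Ncald* was highest in cluster 7 (4.80 and 3.54 in mice 2 and 3), followed by cluster 5 (3.45 and 3.15) and cluster 12 (2.99 and 3.48), which overlapped. It was lowest in cluster 9, at 0.507 over all cells and in 24.2% of them. Cluster 9, with *Nmu* in 41 of its 66 cells, thus had the highest level of *Necab1* and the lowest of *Ncald*. The genes whose levels over 8 clusters were most like *Calb2* in mice 2 and 3 were *Prr7* (mean Pearson r 0.95), *6330403K07Rik* (0.95) and *Hoxa5* (0.93). For *Necab1* they were *Doc2b* (0.95) and *Snx32* (0.95), for *Necab2* *Tm4sf4* (0.95), *Tpd52l1* (0.95) and *Kcnk3* (0.94), for *Hpcal1* *Gm11837* (0.93), *Ifitm2* (0.91) and *Prr7* (0.91), for *Ncald* *Spry4* (0.94), *Syt2* (0.91) and *Tmem65* (0.91), and for *Calb1* *Rflnb* (0.85), *Nefl* (0.85) and *Cartpt* (0.83). Clusters 9 and 11 had too few cells in mice 2 and 3 to be among the 8 (8 and 11 cells in cluster 9, 8 and 13 in cluster 11). The ranks of *Necab1*, *Hpcal1* and *Calb1* thus leave out the cluster where each gene was highest over all cells. In the clusters used, *Calb1* had at most 16 UMIs in a cluster of a mouse. With 8 points, which share libraries and depth, these correlations rank likeness only.

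**Figure D5:**
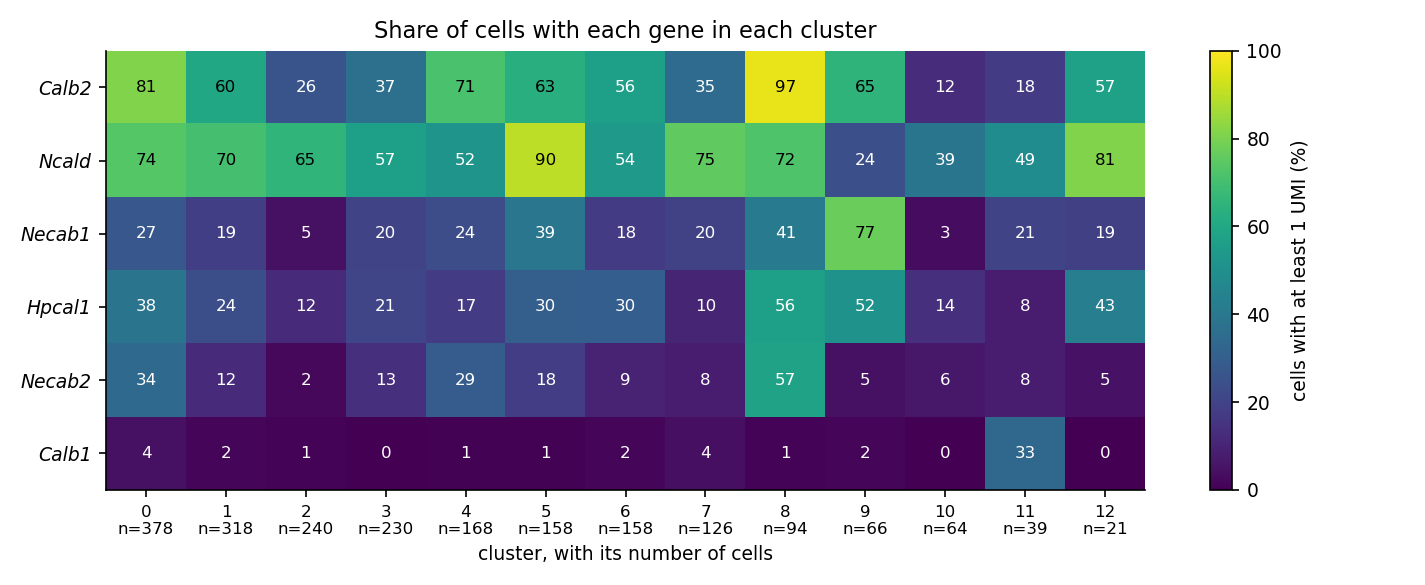
Share of cells with at least 1 UMI (percent, colour and printed number) of 6 of the genes in each of 13 clusters, all mice together, with the number of cells under each cluster. *Calb2* reaches 96.8% in cluster 8, *Ncald* 89.9% in cluster 5, *Necab1* 77.3% in cluster 9 and *Calb1* 33.3% in cluster 11.

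Other EF-hand genes gave a wider view of the same comparisons. Of 30 relatives (calmodulins, visinin-like sensors, potassium channel interacting proteins and S100 proteins), 19 were tested between *Nos1*-only and *Chat*-only cells. *S100a13*, which encodes a small S100 protein, was higher in *Nos1*-only cells, at a mean of 4.32 against 0.769 UMIs per 10000 (log2 difference 2.34 ± 0.13, adjusted p 0.0327 by limma, 3 of 3 mice). It was the only 1 of the 19 to pass. At an unadjusted p under 0.05 there were 8, beside 13.6% of all genes, and the median log2 difference of the 19 was 0.34 beside -0.02 over all genes. The other 2 genes to pass over all 9480 were *Etv1*, a transcription factor gene, higher in *Nos1*-only cells, and *Oprk1*, the kappa opioid receptor gene, lower, both named after their values were seen. *Etv1* is also on the list of interstitial cell of Cajal markers. These 3 calls were lost with a pseudocount of 0.02 and without the mouse as a block (adjusted p of 0.106 and 0.0564 for *S100a13*).

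Between *Nmu* classes 0 of the 19 relatives tested passed and 3 had an unadjusted p under 0.05, beside 7.18% of all genes. The largest differences were those of *Hpca*, which encodes the sensor hippocalcin, at 0.907 against 0.182 (log2 difference 1.47, adjusted p 0.622), and *S100a11* at 5.52 against 2.08 (1.14, 0.559). Without mouse 1 their log2 differences were 0.84 (0.0596) and 0.72 (0.0415), where 1.04% of all genes passed. Between *Slc17a6* classes 0 of 20 passed and 4, *Hpca* among them, had an unadjusted p under 0.05, beside 13% of all genes. *Hpcal4* was at 0.719 against 0.274 (0.99, 0.308). *Hpca* was at 0.0446 against 0.268 (log2 difference -1.34). It reached the filter of 0.1 only through the *Slc17a6*-negative cells, so its direction was set in advance and it was not read as a test. Without mouse 1 the log2 difference of *Hpca* was -0.84. The median log2 differences of the relatives were 0.08 and 0.21, beside -0.06 and -0.16 over all genes.

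The classes themselves were checked on genes of known class. *Gal* and *Vip*, peptides of inhibitory neurons, were higher in *Nos1*-only cells in 3 of 3 mice. *Npy*, another such peptide, was at 1.12 against 0.0105. It reached the filter of 0.1 only through the *Nos1*-only cells, so its direction was set in advance. The other 2 genes of the inhibitory list, *Gch1* (log2 difference -0.58, adjusted p 0.240) and *Adcyap1* (-0.53, 0.513), were lower in 3 of 3. *Penk*, *Slc18a3*, *Tac1* and *Slc5a7* were higher in *Chat*-only cells in 3 of 3 mice, yet 0 of 5 and 0 of 4 passed an adjusted p of 0.05 (*Gal* 72.6 against 5.30, adjusted p 0.140, *Vip* 7.27 against 0.609, 0.0627, *Penk* 1.28 against 4.28, 0.0627, *Slc18a3* 0.616 against 2.04, 0.0956). Without mouse 1 these 4 passed, beside 22.2% of all genes. In *Nmu*-positive cells, *Calcb*, which encodes a calcitonin gene-related peptide, was at 8.13 against 0.740, with an adjusted p of 0.0857, and 0 of 5 sensory genes passed. *Grp*, of the same list, was at 1.54 against 1.45, but its log2 difference was -0.66 (adjusted p 0.654) and it was higher in 1 of 3 mice. *Nog* (1.43 against 0.0497), *Cysltr2* (0.700 against 0.0313) and *Calca* (0.670 against 0.0640) reached the filter of 0.1 only through the *Nmu*-positive cells. Their direction was thus set in advance. Without mouse 1 *Calcb* passed (log2 difference of 2.68), beside 1.04% of all genes, and *Nog* was at 2.53. In *Slc17a6*-positive cells *Penk*, the enkephalin precursor gene, was at 10.9 against 1.56 UMIs per 10000 and passed (log2 difference 2.49 ± 0.38, adjusted p 0.0174, 3 of 3 mice), the 1 of 4 excitatory genes that did, beside 0.223% of all genes. *Tac1*, of the same list, was at 1.62 against 2.98, lower in 3 of 3 mice (-1.83, adjusted p 0.281), and *Slc5a7* (0.57, 0.382) and *Slc18a3* (0.51, 0.423) were higher in 3 of 3. The call of *Penk* was lost with a pseudocount of 0.02 (0.319), with no filter (0.143) and with no block (0.423).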

How the data were processed

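Single-cell RNA-seq libraries of 3 mice, 1 per mouse, were analysed from the deposited table of neurons. The authors counted UMIs with Cell Ranger on mm10 (the version is not given in the sources used here), kept cells by numbers of genes and mitochondrial share, merged the mice, removed genes held to be confounding, and deposited natural log values of 1 plus the UMIs of a gene in each 10000 of its cell. Whole UMIs and cell totals were recovered from the smallest value of each cell (100% whole within 1e-06), and totals include genes left out of the table (1.90% to 34.0% of a cell). Columns outside the sample list numbered 0.

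A cell was positive with 1 UMI. Shares at equal depth came from cells thinned to 3000 UMIs, and 78 shallower cells of mouse 1, 55 of mouse 2 and 45 of mouse 3 were dropped. Clusters were made in Seurat 5.3.0 (20 principal components, resolution 0.5, 2000 variable genes) and called neuron-like or smooth muscle-like from fixed markers. For the 3 class comparisons, UMIs were summed per mouse and class (at least 10 cells in each), and log2(UMIs per 10000 + 0.1) was fitted with limma 3.58.1 (eBayes with trend, mouse as a block) over all genes with a mean of at least 0.1, with Benjamini-Hochberg adjustment over all genes tested and a threshold of 0.05. The direction of a gene under 0.1 in one class was set by that filter. Since cells are classed on *Nos1*, *Chat*, *Nmu* or *Slc17a6* in the same libraries, those genes are not results. Shares have 95% exact binomial and ratios exact Poisson intervals, and a count of 0 allows 3 counts. Scripts were tested on simulated data. Alternatives changed the pseudocount, filter, block, class threshold, depth, total, averaging, cells and mice.

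Named genes are the 7 members, the genes past the threshold in each list or else the 2 with the largest difference, and for each member the 3 genes most alike over clusters of at least 20 cells of a mouse. Other genes of a list are given only to complete a count or a direction. A result that needs an item withheld for evaluation is not reported here. The members and lists were chosen with earlier results of these data known.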

Additional observations from a re-analysis of the deposited data

How the results depend on the processing

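The counts of genes with an adjusted p under 0.05 moved with nearly every choice, so a call at 0.05 in the 3-mouse fits is fragile in both directions. Between *Nos1*-only and *Chat*-only cells there were 3, and 0 with a pseudocount of 0.02, 16 with 0.5, 6 with no replicate block, 2138 with classes set by 2 UMIs (mouse 1 then had too few *Chat*-only cells), 21 with thinned cells, 7 with means over cells, 5 in neuron-like clusters and 11 over genes with UMIs in every mouse, and 14 to 2078 with each mouse left out. Between *Nmu* classes there was 1, and 3 with a pseudocount of 0.02, 0 with 0.5, with no filter, with no replicate block and with means over cells, 509 with classes set by 2 UMIs, 62 with thinned cells, 13 in neuron-like clusters and 8 over genes with UMIs in every mouse, and 57 to 97 with each mouse left out. Between *Slc17a6* classes there were 21, and 0 with a pseudocount of 0.02, with no filter and with no replicate block, 57 with a pseudocount of 0.5 and 60 over genes with UMIs in every mouse, and 79 to 249 with each mouse left out. Classes by 2 UMIs and thinned cells could not be run for *Slc17a6*, since no mouse kept 10 cells. The cause of these shifts was not tested. With 2 mice the fit has 1 residual degree of freedom, so such calls lean on the spread of other genes.

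Directions were steadier. In the *Nos1*-only comparison *Hpcal1* changed sign to 0.017 with classes set by 2 UMIs, 0.21 with thinned cells and 0.055 with means over cells, and *Necab2* to 0.18 with thinned cells. With each mouse left out, *Penk* ranged from -1.555 to 0.52 between *Nmu* classes, and *Gch1* from -1.414 to 0.34 and *Calcb* from -2.246 to 1.40 between *Slc17a6* classes, each changing sign without mouse 1. No other member, and no other list gene given with its values, changed sign in the alternatives run. List genes given only to complete a count or a direction, such as *Grp*, were not followed through the alternatives. The co-detection ratio of *Calb1* with *Calb2* stayed within its interval in all 7 alternatives, and 31 of 42 alternative shares lay within 1 SD of the deposited ones. The 31 include all those of *Pvalb*, which had no UMI in any cell and so could not move. The 2060 cells give 49 with *Calb1* and 39 with *Slc17a6*, which limits every statement on them. Clustered on genes with UMIs in every mouse, 12 clusters formed and none was more than 80.6% of mouse 1.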

Other observations

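Genes that move calcium rather than bind it in the cytosol were followed beside the calcium-binding genes. Of 17 pumps, exchangers and store channels, 12 were tested between *Nos1*-only and *Chat*-only cells and 11 in each of the other comparisons, and 0 passed an adjusted p of 0.05 by limma. At an unadjusted p under 0.05 there were 2, 5 and 3, beside 13.6%, 7.18% and 13% of all genes. The 5 include *Itpr1* and *Itpr3* and the 3 include *Ryr2*, whose direction was set by the filter as given below. The median log2 differences were -0.18, -0.11 and -0.15, beside -0.02, -0.06 and -0.16 over all genes. *Atp2b2*, a plasma membrane calcium pump gene, was at a mean of 0.409 UMIs per 10000 in *Nos1*-only and 0.807 in *Chat*-only cells (log2 difference -0.77, adjusted p 0.241, lower in 3 of 3 mice), and *Itpr3* at 0.188 against 0.110 (0.58, 0.560). In *Nmu*-positive cells *Itpr1* was at 0.0989 against 0.286 (log2 difference -1.08) and *Itpr3* at 0.0581 against 0.187 (-0.92), both genes of store channels opened by inositol trisphosphate. In *Slc17a6*-positive cells *Ryr2*, a ryanodine receptor gene, was at 0.0631 against 0.548 (-2.17), and *Atp2b2* was at 0.943 against 0.522 (0.73, adjusted p 0.336). In these classes *Itpr1*, *Itpr3* and *Ryr2* reached the filter of 0.1 only through the cells where they were high. Their direction was thus set in advance, and their differences are a description with no test.

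Genes of the other classes had their own values. In *Nos1*-only cells the sensory genes *Calca* and *Nog* were at 0.0585 against 0.604 (log2 difference -1.52) and 0.0954 against 0.443 (-1.27). Both reached the filter of 0.1 only through the *Chat*-only cells, so their direction was set in advance and the differences are a description. *Grp*, of the same list, was at 1.56 against 0.925 (0.62, adjusted p 0.710), higher in 2 of 3 mice. *Calcb* was at 1.25 against 1.66 (-0.36, 0.713), higher in 1 of 3. Of 5 sensory genes tested by limma 0 passed an adjusted p of 0.05, with 2 at an unadjusted p under 0.05, beside 13.6% of all genes. These 2 were *Nog* and *Cysltr2* (0.0459 against 0.262). *Cysltr2* also reached the filter only through the *Chat*-only cells, so the count of 2 is not a result. Between *Nmu* classes 0 of 5 inhibitory and 0 of 4 excitatory genes passed (2 and 1 at an unadjusted p under 0.05, beside 7.18% of all genes), with *Npy* at 0.344 against 0.603 (-0.66, 0.639), *Vip* at 3.02 against 4.35 (-0.65, 0.639), *Slc18a3* at 1.90 against 0.955 (0.95, 0.498) and *Penk* at 2.17 against 1.79 (-0.51, 0.790). For *Penk* the direction depends on the measure, since its mean level was higher with *Nmu* while its mean log2 difference was below 0, and it was higher in 1 of 3 mice. Between *Slc17a6* classes 0 of 5 inhibitory and 0 of 4 sensory genes passed (2 and 1 at an unadjusted p under 0.05, beside 13% of all genes). *Adcyap1* was at 0.751 against 0.0850 (1.70) and *Nog* at 0.0210 against 0.209 (-1.27). These 2 reached the filter of 0.1 only through the class where they were high, so they are a description with no test. In the unadjusted counts *Adcyap1* was 1 of the 2 inhibitory genes and *Nog* was the 1 sensory gene. *Gch1* was at 0.467 against 0.609 (-0.81, 0.588) and *Calcb* at 2.57 against 1.59 (-0.56, 0.833). *Calcb* likewise had a higher mean level and a mean log2 difference below 0 with *Slc17a6*, and was higher in 1 of 3 mice, while *Gch1*, lower by both measures, was higher in 2 of 3. Without mouse 1, *Atp2b2* passed between *Nos1*-only and *Chat*-only cells (log2 difference of -0.98), beside 22.2% of all genes. There *Calca*, *Nog* and *Itpr3* were at -0.64, -0.94 and 0.05. Between *Nmu* classes *Npy* and *Slc18a3* then passed (-0.75 and 0.67), beside 1.04% of all genes, and *Itpr1*, *Itpr3* and *Vip* were at -0.41, -0.57 and -0.38. Between *Slc17a6* classes *Ryr2* and *Adcyap1* were then at -2.05 and 0.99.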
